A study of Mus musculus with 14 samples.

Results

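The 8 heavy constant genes of the mouse antibody locus and Jchain were followed across 14 RNA-seq libraries of sorted submandibular gland cells. They are Ighm, Ighd, Ighg3, Ighg1, Ighg2b, Ighg2c, Ighe, Igha and Jchain, 9 of the 54532 genes in the count table, picked by name. The picking was done with earlier values of these libraries in view, among them the fold change of Ighg1 after irradiation. Their differences between groups are therefore given as a description, and nothing is supported with them.

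All libraries came from adult mice that carried TertCreERT2 on 1 allele and a Rosa26 LSL-tdTomato reporter on 1 allele, so that tdTomato marks cells in which the Cre driven from Tert has acted, and their descendants. Live cells positive for EpCAM, an epithelial surface protein, were sorted into tdTomato-positive (Tert+) and tdTomato-negative (Tert-) populations, from glands without irradiation (no RT) or after 15 Gy (RT). There were 3 Tert+ no RT, 3 Tert- no RT, 4 Tert+ RT and 4 Tert- RT libraries. The time between irradiation and sorting, the exact age, the sex and the tamoxifen schedule are not given in the sources used here. The labels do not say which libraries came from separate animals or from pools, and a p-value therefore speaks only to how the libraries vary, which may be technical.

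Total counts ran from 9220126 to 15943597 in the Tert+ no RT group, from 9687159 to 13454637 in Tert- no RT, from 5986984 to 11642156 in Tert+ RT and from 5520412 to 10953634 in Tert- RT. A label field for the cell type named the opposite population in 14 of 14 libraries, so which population is called Tert+ here follows the titles alone. Tert itself had 0.350 ± 0.314 CPM (counts scaled to equal library totals) in Tert+ no RT libraries and 1.81 ± 0.566 CPM in Tert- no RT libraries (SD, n = 3 each), the reverse of the titles, and 3.58 ± 3.76 CPM in Tert+ RT and 0.621 ± 0.718 CPM in Tert- RT (SD, n = 4 each), the order of the titles. These Tert values rest on 15, 63, 101 and 24 counts over the groups in that order. Tert had 0 counts in 1 Tert+ no RT, 1 Tert+ RT and 2 Tert- RT libraries. Counts this low cannot settle which label is right. The RT libraries carry the numbers 9 to 16 and no other library is above 8, so irradiation and library order cannot be told apart. Against the EpCAM sort, 14 B cell identity genes summed to between 12202.5 and 19732.3 CPM over the libraries and 9 epithelial genes to between 92.8 and 585 CPM. The RNA of the 9 genes was thus measured among abundant B cell transcripts.

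An antibody heavy chain joins a variable region to a constant region, and the constant region sets the class: IgM, IgD, IgG, IgE or IgA. A naive B cell makes IgM and IgD together, by alternative splicing of 1 long primary transcript that runs through Ighm and Ighd. After activation, a B cell can undergo class switch recombination, which deletes the DNA between the variable region and a downstream constant gene, so that the cell makes IgG, IgE or IgA in place of IgM and IgD. Jchain encodes the small joining chain that links IgM and IgA units into polymers, and it is switched on in antibody-secreting cells and in part of the activated B cells. Salivary glands are known for IgA secreted by plasma cells that lie beside the ducts and acini.

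The 8 heavy constant genes lie in a row on the minus strand of chromosome 12 (mm10, the same assembly as GRCm38), and the positions in the count table matched the GENCODE annotation for 9 of 9 genes. From 5′ to 3′ the order is Ighm (ENSMUSG00000076617, 113418558 to 113422730), Ighd (ENSMUSG00000104213, 113406604 to 113416324), Ighg3 (ENSMUSG00000076615, 113356224 to 113361232) and Ighg1 (ENSMUSG00000076614, 113325240 to 113330523). It goes on with Ighg2b (ENSMUSG00000076613, 113302965 to 113307933), Ighg2c (ENSMUSG00000076612, 113285325 to 113288932), Ighe (ENSMUSG00000087642, 113269260 to 113273248) and Igha (ENSMUSG00000095079, 113254830 to 113260236). Ighd starts 6.41 kb downstream of the start of Ighm, Ighg3 61.5 kb and Igha 162 kb. Jchain (ENSMUSG00000067149) lies apart from them on chromosome 5, at 88519809 to 88527891 on the minus strand.

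The 4 gamma genes are close relatives, and the hinge exon, which encodes the flexible stretch between the arms and the stem of an IgG, is where they differ most plainly to the eye. The hinge exons of the GENCODE vM21 transcripts (GRCm38, chromosome 12, minus strand) are shown because they tell the IgG classes apart, with the in-frame cysteine codons, whose products can bridge the heavy chains, in capitals.
Ighg3 (113360529 to 113360576): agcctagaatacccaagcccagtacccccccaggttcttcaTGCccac
Ighg1 (113329844 to 113329882): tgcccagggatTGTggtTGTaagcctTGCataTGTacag
Ighg2b (113307261 to 113307326): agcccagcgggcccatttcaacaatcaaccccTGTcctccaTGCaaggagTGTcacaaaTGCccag
Ighg2c (113288263 to 113288325): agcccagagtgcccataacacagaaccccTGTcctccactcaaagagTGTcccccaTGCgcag
The exons are 48, 39, 66 and 63 bases long and hold 1, 4, 4 and 3 such codons.

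Outside the hinge the gamma genes share long identical runs, which bears on how reads can be assigned. The coding sequences of the secreted forms of Ighg2b and Ighg2c were 85.6% identical, and the other pairs of gamma genes between 73.1% and 75.5%. The longest run shared exactly by Ighg2b (113306869 to 113306946) and Ighg2c (113287869 to 113287946) lies in the third coding exon of each and is shown because a read that falls within it fits both genes.
Ighg2b and Ighg2c: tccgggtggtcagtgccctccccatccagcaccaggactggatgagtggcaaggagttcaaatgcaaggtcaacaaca
Of all 50-base windows of each gene's transcripts, 5.49% of those of Ighg2c, 4.15% of Ighg2b, 1.58% of Ighg3 and 0.393% of Ighg1 occurred in another of the 9 genes. No such window was found in Ighm, Ighd, Ighe, Igha or Jchain. How reads that fit several genes were counted is not given in the sources used here, so the split between Ighg2b and Ighg2c is the least certain.

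The unswitched genes were the most abundant of the 9 in every group. Ighm, which encodes the mu chain, stood at 5432, 7380 and 8858 CPM in the Tert+ no RT libraries and at 5042, 7795 and 7034 CPM in Tert- no RT. After RT it was 6169, 5350, 6157 and 6074 CPM in Tert+ and 4948, 4415, 4552 and 4843 CPM in Tert-. The no RT libraries spread more widely than the RT libraries, and every Tert- RT library was below every no RT library, whereas in Tert+ the ranges overlapped. The log2 fold change of Ighm, RT against no RT, was -0.28 (95% interval -0.63 to 0.06) in Tert+ and -0.50 (-0.84 to -0.16) in Tert-.

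Ighd, which encodes the delta chain, followed the same picture with smaller differences. It stood at 2782, 3380 and 3667 CPM in Tert+ no RT and at 2026, 4092 and 3028 CPM in Tert- no RT, and at 2736, 2787, 3107 and 3364 CPM in Tert+ RT and 2406, 2563, 2615 and 2661 CPM in Tert- RT. The ranges of RT and no RT overlapped in both populations. Its log2 fold change was -0.13 (95% interval -0.51 to 0.26) in Tert+ and -0.25 (-0.63 to 0.13) in Tert-.

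Ighd and Ighm are spliced from 1 primary transcript in unswitched B cells, so their ratio was taken within each library, per kilobase of gene model. It averaged 0.458 ± 0.0489 in Tert+ no RT, 0.449 ± 0.0640 in Tert- no RT (SD, n = 3 each), 0.502 ± 0.0459 in Tert+ RT and 0.544 ± 0.0427 in Tert- RT (SD, n = 4 each). The ranges of all 4 groups overlapped. Of 7 genes of heavy chain RNA processing, 0 passed an adjusted p of 0.05 in either RT comparison (edgeR). Among these was Zfp318, a nuclear protein needed for the long transcript that gives IgD, at group means between 98.0 and 126 CPM.

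**Figure D1:**
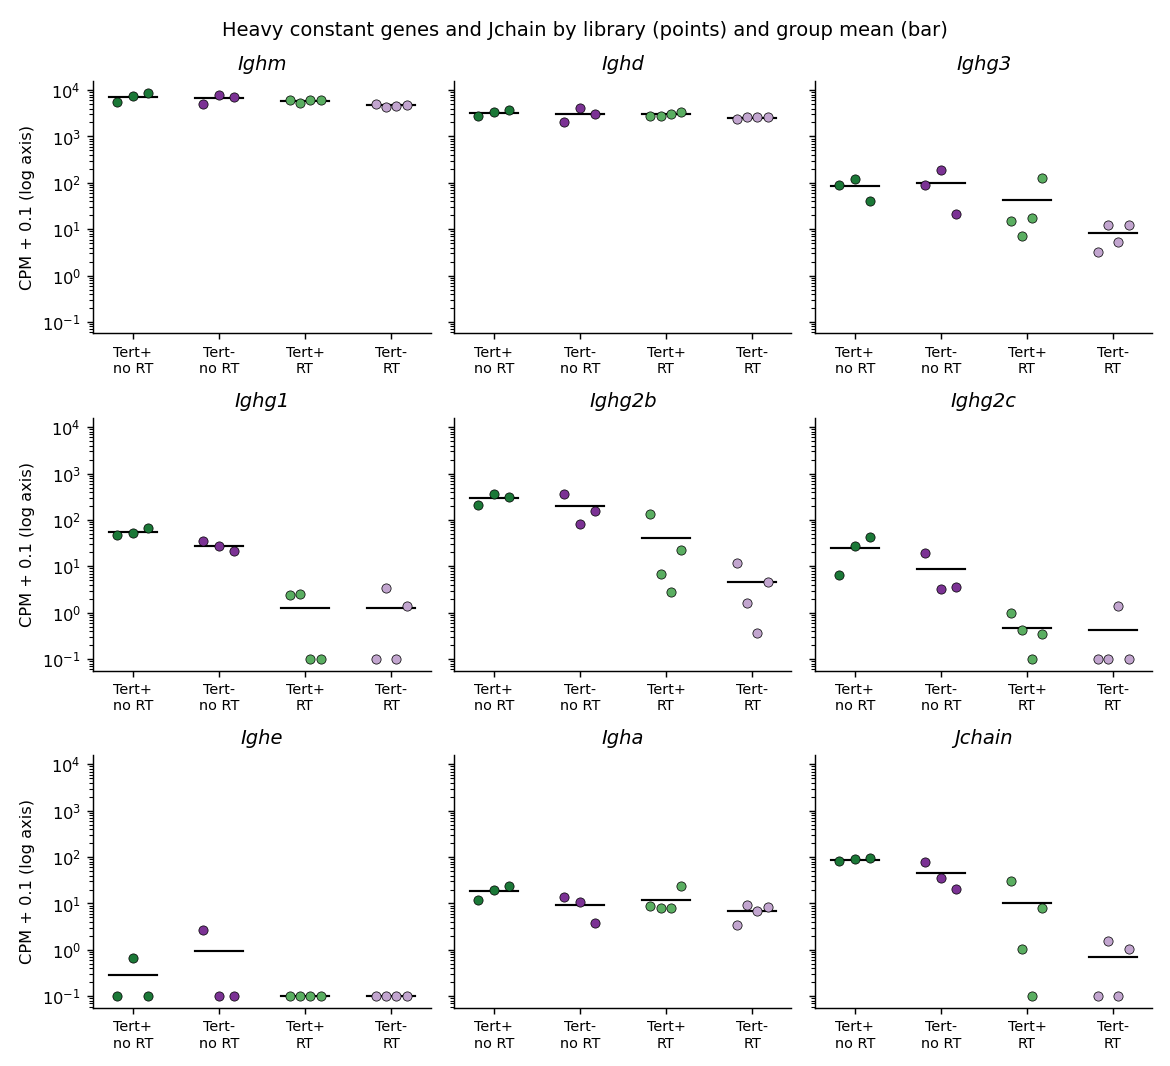
CPM of each of the 9 genes in each library on a log axis (CPM + 0.1), by group; points are libraries and bars are group means. Ighm and Ighd stay within a narrow band in all 14 libraries, while Ighg1, Ighg2b, Ighg2c and Jchain reach down to single counts or 0 after RT.

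Of the gamma genes, Ighg1, Ighg2b and Ighg2c were lower in every RT library than in every no RT library of the same population. Ighg1, the constant gene of IgG1, stood at 46.7, 51.3 and 66.7 CPM in Tert+ no RT and at 34.3, 27.4 and 21.7 CPM in Tert- no RT. After RT it was 2.27 and 2.42 CPM in 2 Tert+ libraries and 0 in the other two, and 3.24 and 1.29 CPM in 2 Tert- libraries and 0 in the other two. Every RT library was below every no RT library. The log2 fold change of Ighg1 was -5.57 (95% interval -7.82 to -3.31) in Tert+ and -4.54 (-6.73 to -2.35) in Tert-.

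Ighg2c, the constant gene of IgG2c, stood at 6.47, 26.9 and 42.2 CPM in Tert+ no RT and at 19.1, 3.15 and 3.57 CPM in Tert- no RT. After RT it was at most 0.871 CPM in the Tert+ libraries, with 15 counts in the group. In Tert- RT its 10 counts were all in 1 library, at 1.32 CPM, and the other three had 0. No RT and RT ranges did not overlap in either population, and the log2 fold change was -6.00 (95% interval -8.68 to -3.31) in Tert+ and -4.68 (-7.32 to -2.03) in Tert-. Leaving out replicate 1 of Tert- no RT moved the Tert- value to -3.30.

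Ighg2b, the constant gene of IgG2b, held most of the switched counts without RT, and its values were uneven between libraries. It stood at 212, 359 and 306 CPM in Tert+ no RT and at 370, 82.9 and 154 CPM in Tert- no RT. In Tert+ RT it was 132, 6.63, 2.73 and 22.2 CPM, and in Tert- RT 11.6, 1.56, 0.264 and 4.57 CPM. Every RT library was below every no RT library of its population, and replicate 1 of Tert+ RT was far above the other three. The log2 fold change was -2.82 (95% interval -5.31 to -0.33) in Tert+, -4.74 without that library, and -5.56 (-8.47 to -2.66) in Tert-.

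Ighg3, the constant gene of IgG3 and the first gamma gene of the row, differed less clearly. It stood at 88.4, 121 and 41.1 CPM in Tert+ no RT and at 87.8, 186 and 21.0 CPM in Tert- no RT. After RT it was 14.8, 6.95, 17.6 and 129 CPM in Tert+ and 3.08, 11.9, 5.29 and 12.5 CPM in Tert-. Replicate 4 of Tert+ RT was above all 3 Tert+ no RT libraries, and in Tert- the ranges did not overlap. The log2 fold change was -0.98 (95% interval -2.99 to 1.02) in Tert+, -2.65 without that library, and -3.55 (-5.72 to -1.38) in Tert-.

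Igha, the alpha chain of IgA, was low in every library. It stood at 11.97, 19.2 and 23.4 CPM in Tert+ no RT, 13.8, 10.5 and 3.78 CPM in Tert- no RT, 8.63, 7.92, 7.91 and 23.8 CPM in Tert+ RT and 3.26, 9.21, 6.88 and 8.28 CPM in Tert- RT. The ranges overlapped in each of the 4 comparisons of groups, and its log2 fold change after RT was -0.59 (95% interval -1.69 to 0.51) in Tert+ and -0.43 (-1.55 to 0.69) in Tert-. Igha made up 0.163% ± 0.0209 of the heavy constant counts in Tert+ no RT and between 0.0954% and 0.131% on average in the other groups. Pigr, the epithelial receptor that carries IgA into saliva, stood at means between 19.3 and 50.3 CPM over the groups and did not pass in either RT comparison.

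Ighe, the constant gene of IgE, had 9 counts in Tert+ no RT replicate 2, 35 counts in Tert- no RT replicate 1, and 0 in the other 12 libraries. It did not pass the filter on low counts and was not tested. With 3 counts over a group as the floor, its level after RT was at least 10.9-fold lower in Tert-, a bound that rests on 1 library.

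Jchain was low in the RT libraries, as Ighg1 was. It stood at 81.4, 89.0 and 93.7 CPM in Tert+ no RT, the tightest of its 4 groups relative to the mean, and at 77.0, 35.7 and 20.4 CPM in Tert- no RT. In Tert+ RT it was 31.1, 0.970, 0 and 7.96 CPM, and in Tert- RT 0, 1.43, 0 and 0.949 CPM. Every RT library was below every no RT library of its population. The log2 fold change was -3.10 (95% interval -5.44 to -0.77) in Tert+, -4.76 without replicate 1 of Tert+ RT, and -6.07 (-8.97 to -3.17) in Tert-. Per 1000 heavy constant counts, Jchain averaged 8.18 ± 1.17 in Tert+ no RT, 5.02 ± 4.46 in Tert- no RT, 1.09 ± 1.60 in Tert+ RT and 0.0824 ± 0.10 in Tert- RT.

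Compared per kilobase of gene model, so that long and short genes can be set side by side, the order of levels in Tert+ no RT was Ighm (3830 ± 911 CPM per kb), Ighd (1724 ± 237), Ighg2b (109 ± 27.9), Jchain (35.0 ± 2.48), Ighg3 (33.3 ± 16.1), Ighg1 (21.2 ± 4.05), Ighg2c (19.0 ± 13.5), Igha (6.82 ± 2.16) and Ighe (0.120 ± 0.207; SD, n = 3). From Jchain to Igha the libraries of each gene overlapped those of the next, whereas Ighm, Ighd, Ighg2b and Jchain did not overlap one another. In Tert- RT the order was Ighm (2487 ± 131 CPM per kb), Ighd (1348 ± 58.3), Ighg3 (3.27 ± 1.88), Igha (2.59 ± 0.979), Ighg2b (1.68 ± 1.89), Ighg1 (0.438 ± 0.591), Ighg2c (0.249 ± 0.499) and Jchain (0.236 ± 0.283; SD, n = 4), and from Ighg3 downward the libraries of each gene overlapped those of the next. Igha was thus below all 4 gamma genes in the first group and below Ighg3 alone among them in the second. The gene model of Ighg2c is 1326 bases long, and those of Ighg3, Ighg1 and Ighg2b are 2512, 2592 and 2678. Their secreted coding sequences are of like length, between 971 and 1007 bases. The level of Ighg2c per kilobase beside the other gamma genes therefore depends on the annotation.

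**Figure D2:**
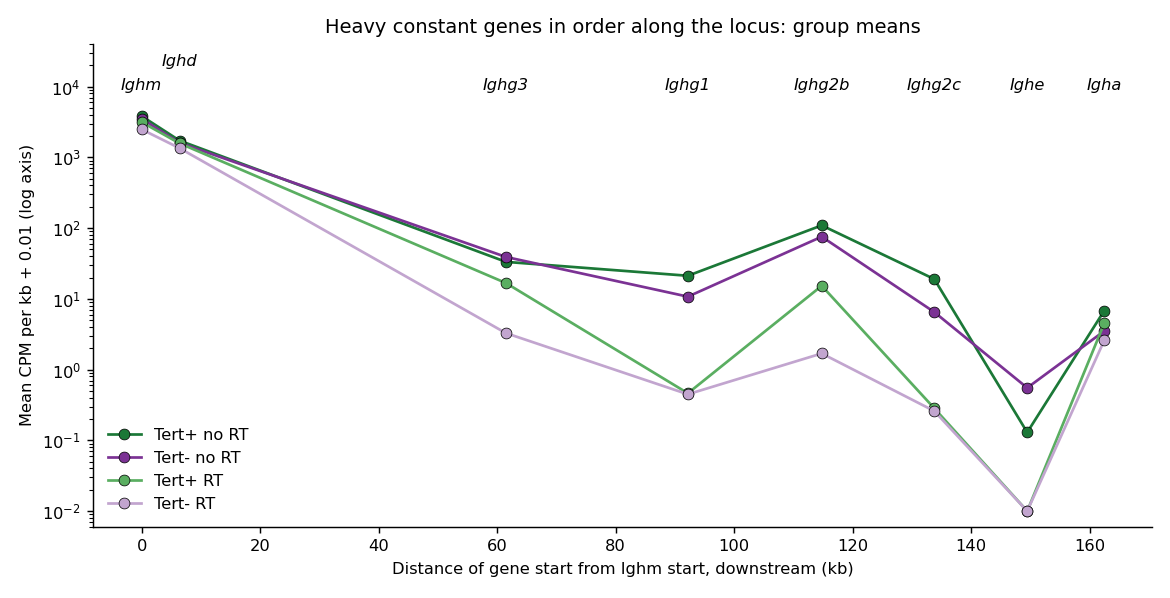
Group means of CPM per kb of the 8 heavy constant genes, with a small offset added on a log axis, against the distance in kb of each gene's start from the start of Ighm; lines join the genes of a group. Ighd and Ighg3, its neighbour downstream, are far apart in every group (1724 and 33.3 CPM per kb in Tert+ no RT), the RT groups lie lower at the 4 gamma genes and at Ighe, which has 0 counts after RT, and the groups lie close together at Ighm, Ighd and Igha.

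A share taken within a library does not depend on how many B cells the library held, so the counts of Ighg1, Ighg2b, Ighg2c, Ighg3, Ighe and Igha were divided by all heavy constant counts. The result is called the switched share, where switched names the genes and not the state of a cell. Counts per gene do not show whether a transcript was joined to a variable region. The share was 4.26%, 5.10% and 3.69% in Tert+ no RT and 6.94%, 2.54% and 1.99% in Tert- no RT. In Tert+ RT it was 1.75%, 0.297%, 0.304% and 1.82%, and in Tert- RT 0.244%, 0.370%, 0.192% and 0.354%. The lowest no RT library lay above the highest RT library in both populations. The exact (Clopper-Pearson) 95% intervals treat each count as an independent draw and cover that counting error only. They may therefore be too narrow. They ran from 0.157% to 0.232% for the lowest library, from 104 of 54297 counts, and from 6.79% to 7.10% for the highest.

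The group means of the switched share were 4.35% ± 0.712 and 3.82% ± 2.71 without RT (SD, n = 3 each) and 1.04% ± 0.857 and 0.290% ± 0.0865 after RT (SD, n = 4 each), for Tert+ and Tert-. In Tert+ RT, replicates 1 and 4 lay well above replicates 2 and 3 and above every Tert- RT library, while replicates 2 and 3 lay within the Tert- RT range. In the bulk RNA measured here, fewer cells of a type and less RNA per cell cannot be told apart.

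**Figure D3:**
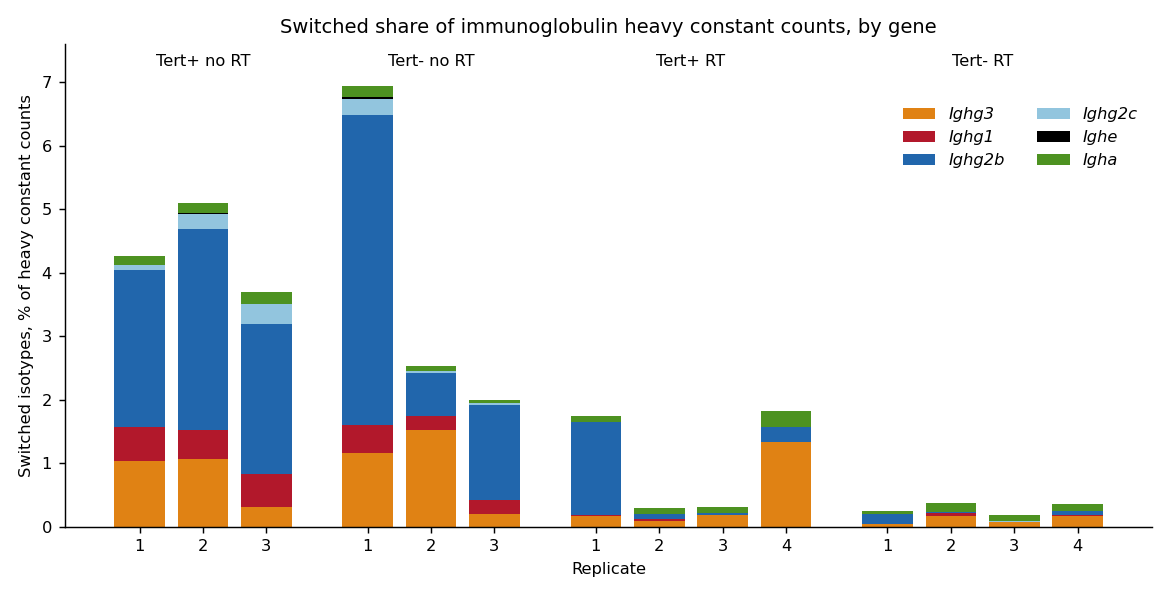
Switched share of the heavy constant counts in each library, in percent. The RT libraries lie between 0.192% and 1.82% and the no RT libraries between 1.99% and 6.94%.

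The make-up of the switched counts also differed. Without RT the gamma genes held 96.1% ± 0.883 of them in Tert+ and 97.2% ± 0.819 in Tert- (SD, n = 3 each), and after RT 80.1% ± 12.6 and 66.3% ± 13.1 (SD, n = 4 each). Ighg2b was the leading switched gene in 5 of the 6 no RT libraries, and Ighg3 led in Tert- no RT replicate 2 with 60.0%. After RT the libraries had different leaders: Ighg2b with 83.3% in Tert+ replicate 1, Ighg3 with 73.6% in Tert+ replicate 4, and Igha with 32.7% in Tert+ replicate 2 and with 52 of 104 switched counts in Tert- replicate 3. Ighg1 and Ighg2c led in no library. Over whole groups, Ighg1 gave 11.2% of the switched counts in Tert+ no RT and 0.971% in Tert+ RT, while Igha gave 3.85% and 11.5%.

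Across all genes, edgeR's quasi-likelihood test with Benjamini-Hochberg adjustment over 15915 tested genes called 0.873% of them lower after RT in Tert+ and 0.804% lower in Tert-. Of the 9 members 8 passed the filter and were tested, and Ighg1 and Ighg2c fell in Tert+, and Ighg1 and Jchain in Tert-, with 0 higher in either, where 1.11% and 0.817% of all tested genes were higher. Some passed the filter only through the no RT libraries, where they were high. Fold changes were negative for 8 of 8 in both populations, with a median log2 fold change of -1.90 in Tert+ and -4.05 in Tert- beside 0.00 and -0.02 over all tested genes. RT libraries lay wholly below no RT libraries for 4 of the 8 in Tert+ and 6 of the 8 in Tert-, and for 8.25% and 9.22% of all tested genes. Since the members were chosen with these contrasts in view, nothing is read from their counts.

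The calls rested on few libraries. In Tert+, Ighg1 and Ighg2c both missed the threshold when replicate 2 of Tert+ no RT was left out (adjusted p = 0.0861 and 0.102, edgeR) or replicate 3 (0.0819 and 0.130), and Ighg2c also without Tert+ RT replicate 2 (0.0723) or 3 (0.0696). In Tert-, Ighg1 and Jchain both missed it without replicate 2 or 3 of Tert+ no RT or Tert- no RT, or without any 1 of the 4 Tert- RT libraries, with adjusted p up to 0.118 and 0.125 (edgeR), and Jchain also without Tert+ RT replicate 4. Other members passed only once a library was left out: Jchain in Tert+ without Tert+ RT replicate 1 (adjusted p = 0.0414, edgeR), and in Tert- Ighm without Tert- no RT replicate 1 (0.0214), Ighg2b without Tert+ RT replicate 1 (0.0298) or 3 (0.0482) and Ighg3 without Tert+ RT replicate 4 (0.0223). In Tert- the fold changes stayed at -4.14 or below for Ighg1 and -5.39 or below for Jchain in all 14 refits.

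**Figure D4:**
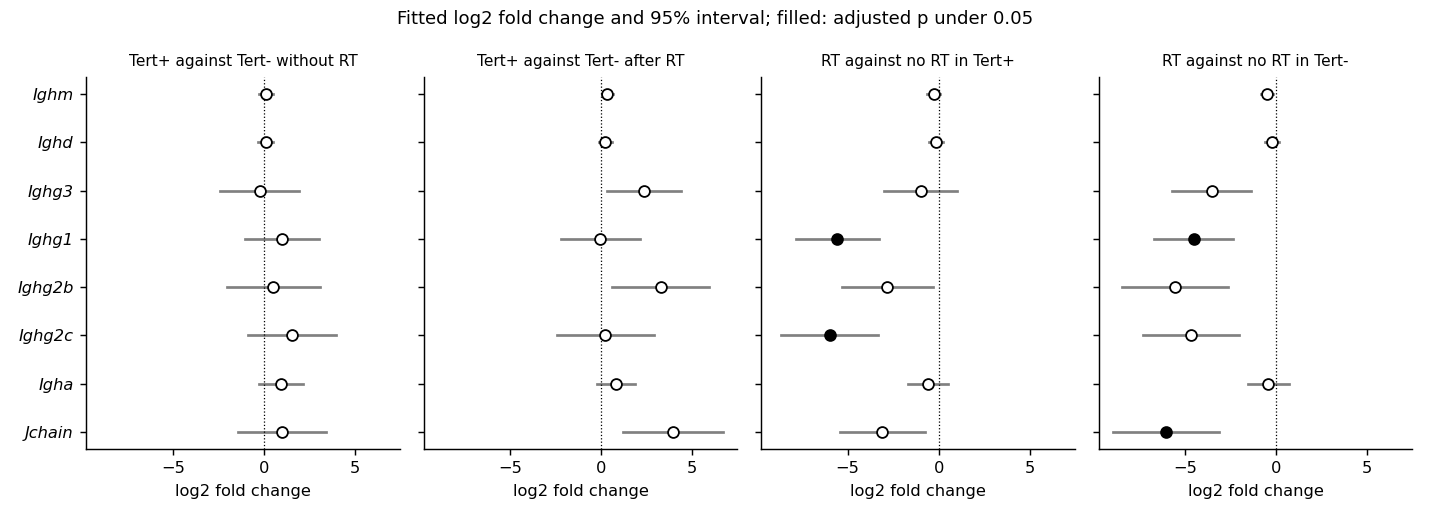
Fitted log2 fold change of the 8 tested members in 4 panels, Tert+ against Tert- without and after RT and RT against no RT in Tert+ and in Tert-, with 95% intervals as lines; filled points had an adjusted p under 0.05 (edgeR). In the RT panels Ighm, Ighd and Igha lie near 0, and Ighg1, Ighg2b, Ighg2c and Jchain lie lower with wide intervals.

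Between the populations, 0 of the 8 tested members passed in either state (edgeR), beside 0.0377% of all tested genes without RT and 0.0126% after RT. At an unadjusted p under 0.05 there were 0 members without RT and 4 after RT (Ighm, Ighg2b, Ighg3 and Jchain), beside 4.5% and 7.39% of all tested genes, and DESeq2 called 0 in both. Ighg1 and Jchain were higher in every Tert+ than in every Tert- library without RT, and Ighm and Ighd after RT, as were 4.04% and 2.43% of all tested genes. The log2 difference of Jchain, Tert+ against Tert-, was 0.99 (95% interval -1.42 to 3.39) without RT and 3.95 (1.199 to 6.71) after RT, or 2.26 without Tert+ RT replicate 1. That of Ighm was 0.13 (95% interval -0.24 to 0.49) and 0.34 (0.02 to 0.66).

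The RT effect was also set against itself between the populations, and for 0 members did the difference pass (edgeR), beside 0% of all tested genes. At an unadjusted p under 0.05 the number was 0 of 8, beside 3.63% of all tested genes, and DESeq2 gave 0. The widest differences were those of Jchain, 2.97 on the log2 scale (95% interval -0.69 to 6.62), Ighg2b, 2.74 (-0.93 to 6.41), and Ighg3, 2.57 (-0.38 to 5.52). These intervals leave room for equal effects and for large differences.

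Levels of other cells' markers were as follows. The 7 macrophage genes summed to between 117 and 281 CPM in Tert+ no RT and between 1524 and 1865 CPM in Tert- no RT, and to between 94.2 and 191 CPM and between 250 and 1159 CPM after RT. The 7 T cell genes summed to between 79.9 and 363 CPM in Tert+ no RT, 57.4 and 360 CPM in Tert- no RT, 29.1 and 240 CPM in Tert+ RT and 24.1 and 80.7 CPM in Tert- RT. For the 5 acinar genes, which include secreted saliva proteins, the sums ran between 1344 and 15999.9 CPM over all libraries. None of the 7 T cell, 9 epithelial and 5 acinar genes passed in any of the 5 comparisons, and of the macrophage genes C1qc alone passed once, lower in Tert+ no RT (5.48 against 321 CPM, adjusted p = 0.0433, edgeR; 0.261 without Tert+ no RT replicate 3). The part of these cells in the differences above was not tested.

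Most genes of class switch recombination gave no call. Of 29 tested genes of the list, 2 were lower and 0 higher after RT in Tert+ and 0 passed in Tert-. Over all tested genes 0.873% were lower in Tert+ and 0.804% in Tert-. The median log2 fold changes of the list were -0.11 and 0.00. The genes lower in Tert+ were Xrcc6, the Ku70 subunit that holds broken DNA ends for joining, and H2afx, the histone H2A.X that is phosphorylated at breaks. Xrcc6 fell from 85.8 ± 13.7 to 39.6 ± 8.57 CPM (adjusted p = 0.0136) and H2afx from 93.9 ± 22.2 to 40.1 ± 2.50 CPM (adjusted p = 0.0159, edgeR; SD, n = 3 and 4). Both missed the threshold without Tert+ no RT replicate 2 (0.0832 and 0.0829) or replicate 3 (0.0736 and 0.0819). In Tert- Xrcc6 had 60.3 and 43.6 CPM (adjusted p = 0.191, edgeR) and H2afx 73.5 and 40.3 CPM (0.0541), and neither passed. For both genes the Tert- RT libraries also lay wholly below the Tert- no RT libraries, as for 9.22% of all tested genes.

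The germinal centre is where activated B cells mutate and switch their antibody genes. Of 7 tested marker genes of it 6 were lower in Tert+ and 3 in Tert-, beside 0.873% and 0.804% of all tested genes. Median log2 fold changes were -4.00 and -1.99, the same with Mybl1, at 0 in Tert+ RT, at its bound. The fold was negative for 7 of 7 in Tert+, and in Tert- negative for 6 and positive for 1. Some of these genes had already been seen to fall in these libraries when the list was written, so it is not independent evidence. Mef2b, a transcription factor of germinal centre B cells, fell from 108 ± 36.6 to 7.30 ± 3.76 CPM in Tert+ and from 49.6 ± 10.7 to 6.18 ± 3.43 CPM in Tert- (adjusted p = 0.00140 and 0.0120, edgeR), and passed in 14 of 14 refits in both. Bcl6, the repressor that directs the germinal centre programme, fell from 211 to 104 CPM in Tert+ and from 174 to 90.0 CPM in Tert- (adjusted p = 0.0238 and 0.0327, edgeR). It missed the threshold in 4 of 14 refits in Tert+, up to 0.132 without Tert+ no RT replicate 3, and in 7 of 14 in Tert-, up to 0.132 without Tert- no RT replicate 3.

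Rgs13, a regulator of G protein signalling in germinal centre B cells, fell from 61.04 to 3.81 CPM in Tert+ and from 16.9 to 0.454 CPM in Tert- (adjusted p = 0.0203 and 0.0146, edgeR). In Tert+ it missed the threshold without replicate 2 (0.108) or 3 (0.0819) of the no RT group, or replicate 2 (0.0533) or 3 (0.0521) of the RT group. In Tert- it missed it without no RT replicate 3 (0.0611) or RT replicate 3 (0.0560). Gcsam, a signalling protein of germinal centre B cells, fell from 55.6 ± 14.1 to 1.26 ± 1.53 CPM in Tert+ (adjusted p = 0.0293, edgeR) and had 14.5 ± 12.6 and 0.519 ± 1.04 CPM in Tert- (0.0551). In Tert+ it missed the threshold without replicate 2 (0.108) or 3 (0.108) of the no RT group, or replicate 1 (0.0651) or 2 (0.0723) of the RT group. Summed over the 7 genes, germinal centre markers ran between 323 and 671 CPM in Tert+ no RT, between 280 and 299 CPM in Tert- no RT, between 112 and 144 CPM in Tert+ RT and between 110 and 122 CPM in Tert- RT.

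Genes of antibody-secreting cells had smaller median differences. Of 14 tested plasma cell genes 1 was lower in Tert+ and 0 in Tert-, beside 0.873% and 0.804% of all tested genes. Median log2 fold changes were -0.13 and -0.30. The fold was negative for 9 and positive for 5 in Tert+, and negative for 11 and positive for 3 in Tert-. The gene was Txndc5, a folding enzyme of the endoplasmic reticulum, which fell from 264 ± 17.4 to 155 ± 39.7 CPM (adjusted p = 0.0463, edgeR); it passed in 2 of 14 refits only, with up to 0.171 without Tert+ no RT replicate 2. Xbp1, a transcription factor of secretory cells, had 236 and 144 CPM in Tert+ and 196 and 117 CPM in Tert- (adjusted p = 0.0683 and 0.0601, edgeR). Its RT libraries lay wholly below the no RT libraries in both populations, as for 8.25% and 9.22% of all tested genes. In Tert+ so did those of Derl3 (means 22.7 and 2.37 CPM), Eaf2 (12.2 and 4.69) and Slamf7 (66.4 and 44.5). Those of Irf4 lay wholly above in Tert+ (109 and 199 CPM). Mzb1, a chaperone of IgM secretion, had 224 and 206 CPM in Tert+ and 176 and 196 CPM in Tert-. Prdm1, the regulator that directs plasma cell fate, had means between 3.08 and 9.35 CPM over the groups. Tnfrsf17, the BCMA receptor of plasma cells, had 0 counts in 12 libraries and 1 count in each of 2 Tert- RT libraries.

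**Figure D5:**
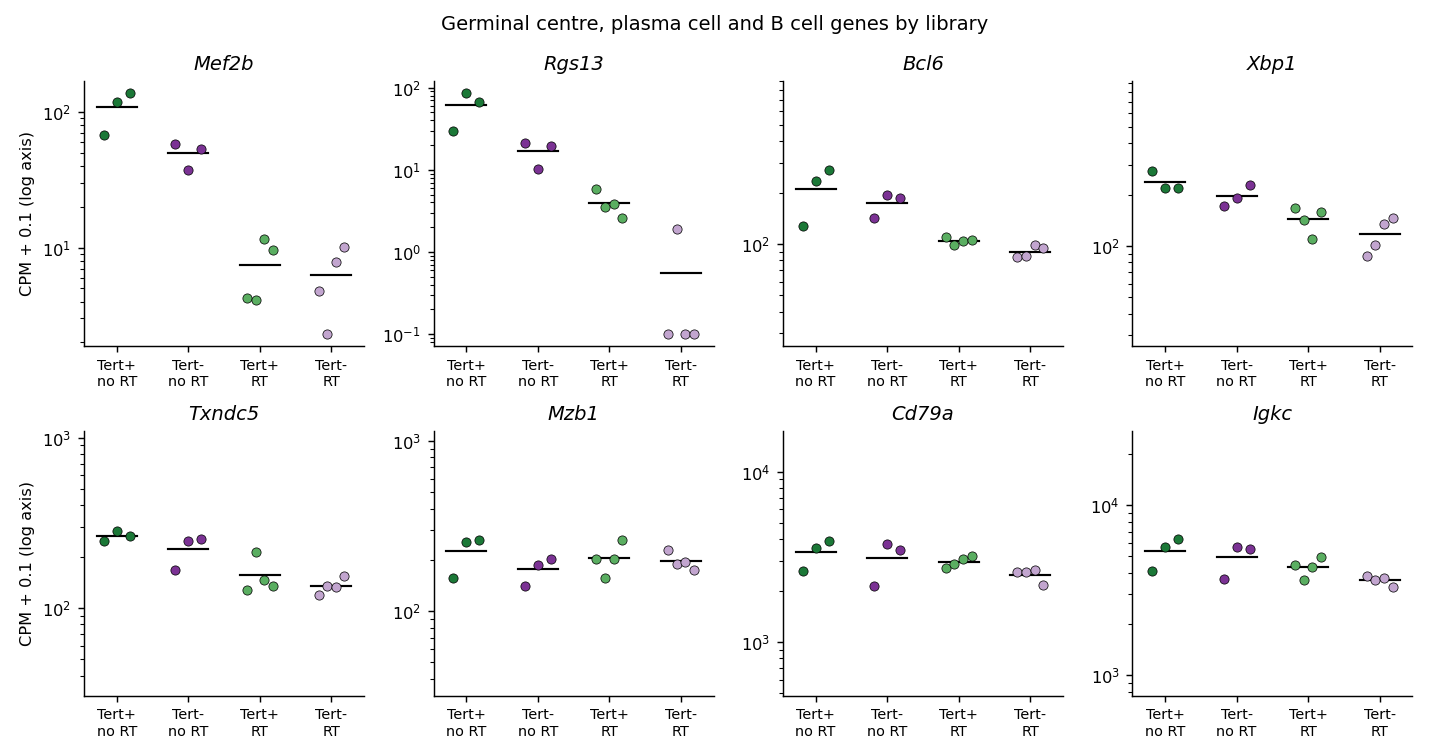
CPM of germinal centre, plasma cell and B cell genes in each library, by group, on a log axis (CPM + 0.1); points are libraries and bars group means. Mef2b lies at 11.5 CPM or below in all 8 RT libraries and at 37.6 CPM or above in the 6 no RT libraries, whereas Cd79a lies between 2134 and 3923 CPM in all 14 libraries.

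Genes that mature B cells use in general gave few calls. Of 14 B cell identity genes 0 were lower in either RT comparison, and Btk, a kinase of B cell receptor signalling, rose in Tert- from 151 ± 28.4 to 256 ± 25.0 CPM (adjusted p = 0.0299, edgeR). Btk missed the threshold in 5 of 14 refits, up to 0.132 without Tert- no RT replicate 3. Cd79a, the signalling partner of membrane antibody, had means of 3366, 3119, 2960 and 2480 CPM in Tert+ no RT, Tert- no RT, Tert+ RT and Tert- RT. The light chain constant genes, which pair with every heavy chain class, gave 0 of 4 calls in any comparison, with Igkc at 5362, 4975, 4347 and 3628 CPM in the same order.

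Of 23 tested genes of the signals that direct switching 1 passed. Tgfb1, whose product directs switching to IgA and IgG2b, rose in Tert- from 53.5 ± 14.3 to 112 ± 15.6 CPM (adjusted p = 0.0319, edgeR), and stood at 50.2 ± 9.56 and 87.3 ± 19.4 CPM in Tert+. It missed the threshold in 5 of 14 refits, up to 0.136 without Tert- no RT replicate 2. Cd40, the receptor through which T cells license switching, had means between 144 and 169 CPM over the 4 groups.

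Of 9 tested genes of antibody transport and Fc receptors, 1 was lower in Tert+ and 2 in Tert-, beside 0.873% and 0.804% of all tested genes. Fcgrt, the neonatal Fc receptor chain that salvages IgG, fell from 57.8 ± 1.84 to 30.3 ± 7.43 CPM in Tert+ and from 57.7 ± 9.49 to 27.4 ± 3.94 CPM in Tert- (adjusted p = 0.0372 and 0.0286, edgeR), and missed the threshold in 8 and 5 of 14 refits, up to 0.149 and 0.131 without replicate 3 of the no RT group of the same population. Fcer1g, the signalling chain of several Fc receptors, fell from 127 to 32.5 CPM in Tert- (adjusted p = 0.0453, edgeR) and missed it in 10 of 14, up to 0.141 without Tert- no RT replicate 2. Of 8 genes of memory and B-1 cells 0 passed.

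The pattern of each member over the 14 libraries was compared with that of 8393 expressed genes, by Pearson correlation of log2 CPM, given as a description in which all genes share the same libraries and RT groups. Closest to Ighm were Serpinb1a (r = 0.958), Igkc (0.951), Chrac1, Arhgdib and Ndufs8. Closest to Ighd were Gmfg (r = 0.922), Fcmr, the IgM receptor (0.916), Cd79a (0.900), Sh3bgrl3 and S100a10. Closest to Ighg1 were Fech (r = 0.928), Mkrn2, Plcg2, Cdca7 and Tbl3, to Ighg2b Tdp1 (r = 0.936), Dap, Srm, Selplg and Ccnd2, and to Ighg2c Txn1 (r = 0.910), Tmem106c, Ehd3, Hat1 and Mef2b (0.889). Closest to Ighg3 was Reps1 (r = 0.875), to Igha Tmem71 (0.904) and to Jchain Ipp (0.938).

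Among the members, Ighm went with Ighd (r = 0.822, 14 libraries), and Jchain with Ighg2b (0.920) and Ighg1 (0.868). Ighd went least with Ighg1 (r = 0.235) and Ighg2b (0.236). Igha had its highest value with Ighg3 (r = 0.730), and both were highest of their group in Tert+ RT replicate 4.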

How the data were processed

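Sorted cells from 14 libraries were analysed from the deposited table of raw counts per gene. Libraries were made from 1 ng of RNA by the Picelli protocol, per the labels' protocols, and the submitters' processing notes name HISAT2 and mm10; the counting tool, its annotation and its handling of multimapping reads are not given in the sources used here. Groups follow the sample titles. Members and gene lists were chosen with earlier results of these data known.

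Counts were normalised by TMM, filtered with filterByExpr (15915 of 54532 genes kept) and fitted with edgeR 4.0.16 (quasi-likelihood, robust, 1 term per group over 14 libraries, R 4.3.3); adjusted p-values are Benjamini-Hochberg over all tested genes, with a threshold of 0.05. The script was tested on simulated data. CPM are counts scaled by the TMM-adjusted library totals. 95% intervals of fold changes use the fit's degrees of freedom. Alternatives were DESeq2 1.42.0, DESeq2-type size factors, no filter, a replicate block, leaving out each library, and other definitions of the switched share. Named genes were all members, up to 4 per list past the threshold by smallest adjusted p, and up to 5 most correlated genes per member. For lists with no gene past it the rule gave the 2 highest in CPM, and most of these are not named here. Cd79a, Cd40, Mybl1, Xbp1, Mzb1, Prdm1, Tnfrsf17, Derl3, Eaf2, Slamf7, Irf4, Pigr and Zfp318 were named after their values were seen. Sequences are from GENCODE vM21. One item of the gene lists is not reported here.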

Additional observations from a re-analysis of the deposited data

Results flagged for a closer look

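In 20 groups of 4 libraries (8 tested members and the shares and ratios over them), 5 held a library far from the other three. The cutoff flags about 1 in 20 by chance where values are normally distributed. CPM near 0 need not be, so nothing is read from the number flagged. Ighm stood at 5350.21 CPM in Tert+ RT replicate 2, with the others between 6074 and 6169. Ighg2b stood at 132.091 CPM in Tert+ RT replicate 1, with the others between 2.73 and 22.2. Ighg2c stood at 1.32249 CPM in Tert- RT replicate 3, with 0 in the others. Ighg3 and Igha were both high in Tert+ RT replicate 4, at 128.575 CPM (others between 6.95 and 17.6) and 23.7817 CPM (others between 7.91 and 8.63).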

How the results depend on the processing

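Counts of calls depended most on the tool and on single libraries. Past the threshold in the RT comparison were 315 genes in Tert+ and 258 in Tert-, against 1173 and 1327 with DESeq2 and, leaving out each library in turn, 21 to 507 and 18 to 901. Between Tert+ and Tert- there were 6 without RT and 2 after RT, against 83 and 148 with DESeq2, 16 and 4 with no filter on low counts, and 1 to 13 and 0 to 7 leaving out each library. For the difference of the RT effect the counts were 0, 23 with DESeq2 and 0 to 1 leaving out each library. Members past the threshold were 2 in each RT comparison. In Tert+ they were 1 with no filter, 1 with the replicate block and 0 to 3 leaving out each library, and in Tert- 5 with DESeq2 (Jchain, Ighm, Ighg2b, Ighg2c and Ighg3, but not Ighg1, adjusted p = 0.0560), 0 with no filter and 0 to 3 leaving out each library. The labels do not say what libraries of the same replicate number share. Their deviations from the group means correlated between -0.0802 and 0.119, which with so few libraries cannot settle whether they are paired. With the replicate block, Ighg2c in Tert+ (adjusted p = 0.0808, edgeR) and Ighg1 in Tert- (0.0844) missed the threshold. Ighg2b (0.0316) and Ighg3 (0.0240) in Tert- passed it. The block also ended the calls of Gcsam (0.0591), Rgs13 (0.0629) and Fcgrt (0.0749) in Tert+ and of Fcer1g in Tert- (0.0785), and no filter ended those of Gcsam in Tert+ (0.101), Fcer1g in Tert- (0.111) and C1qc between the populations without RT (0.124). DESeq2-type size factors ended that of Txndc5 in Tert+ (0.0531). A replicate block within each RT state left 1 gene between the populations after RT.

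The switched share of Tert+ no RT, 4.35%, became 3.31% per kilobase, 6.24% with Ighm as the only unswitched gene and 3.57% without Ighg3, an alternative chosen after seeing the data. That of Tert- RT, 0.290%, became 0.195% without Igha, 0.449% with Ighm alone and 0.177% without Ighg3. Directions of members changed as follows. For Tert+ against Tert-, the log2 difference of Ighg3 without RT went from -0.23 to 0.11 with the replicate block within each RT state. That of Ighg1 after RT went from -0.044 to 0.036 with DESeq2. Leaving out each library, Tert+ against Tert- without RT ranged from -0.058 to 0.30 for Ighm, -0.14 to 0.36 for Ighd and -0.71 to 0.62 for Ighg3, and after RT from -0.77 to 1.08 for Ighg1 and -0.73 to 5.02 for Ighg2c. The RT effect on Ighd in Tert- ranged from -0.46 to 0.012. The difference of the RT effect ranged from -0.13 to 0.35 for Ighd, -1.74 to 0.10 for Ighg1, -2.69 to 3.47 for Ighg2c and -0.72 to 0.23 for Igha. The highest Ighg2c values come from leaving out Tert- RT replicate 3, the only library of its group with Ighg2c counts, so they are no measure of size. The cause was not tested. Depth limits the folds of Ighg1 and Ighg2c, which had 41 and 15 counts in all Tert+ RT libraries and 40 and 10 in all Tert- RT libraries.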

Other observations

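The light chain locus gave a pattern that was noticed after the values had been seen and has no test. The lambda genes Iglc1, Iglc2 and Iglc3 held 19.9%, 25.2% and 29.2% of the light chain constant counts in Tert+ no RT and 18.9%, 22.6% and 20.4% in Tert- no RT. After RT they held 27.4%, 29.6%, 31.5% and 24.8% in Tert+ and 17.0%, 20.3%, 23.0% and 22.6% in Tert-. The Tert+ library was higher than the Tert- library of the same number in 7 of 7 cases, and after RT the ranges did not overlap. Whether libraries of the same number are paired is not given in the labels.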
